A study of Homo sapiens with 4 samples.

Results

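The array held probe sets annotated to a single gene for 19775 genes, and 11605 of these reached a log2 level of 6 in both DOX pairs. Of the 11605, 8 genes differed 2-fold or more in the same direction between DOX and control in both ALDH fractions. Described here are 7 of the 8: NID2, UNC5C, ALPK2, TES, TTC39B, SAMD9L and SCNN1G. The other gene was the chemokine gene CXCL10. The 7 genes were chosen on these DOX differences, which are therefore given as a description with no test. All 7 reached a log2 level of 6, taken here as measured, in each DOX pair, and 19 probe sets were annotated to them alone. There were no replicate arrays, so a DOX difference is one array minus another.

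The cells were SUM159, an established human breast cancer line of mesenchymal character, and carried the pTRIPZ vector with an inducible miR-100 insert. They were sorted by flow cytometry into a fraction with high aldehyde dehydrogenase (ALDH) activity, a marker used to enrich stem-like breast cancer cells, and a fraction without it. Each fraction was cultured in suspension without DOX (control) or with DOX, and RNA from each of the 4 groups was hybridised to 1 Affymetrix array. All 4 groups carry the construct, so that cells given DOX without it were not analysed here, and an effect of the drug and of the induced microRNA cannot be told apart. The titles and the treatment protocol name doxycycline for 10 h, whereas the sample descriptions name doxorubicin, another drug, and 13 h. The word DOX stands here for the treated arrays. The labels do not say whether the line is 1 clone. The comparison addresses which transcripts differed between the DOX and the control array in each fraction.

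A microRNA recognises messenger RNAs mainly through its seed, the bases near its 5′ end, which pair with sites that lie most often in the untranslated tail of the message. Direct pairing usually lowers the target, and genes that respond later can go either way. The mature sequence of miR-100 is shown because it is the microRNA of the inducible insert. Those of its family, which the insert is not named for, are set beside it. The seed, bases 2 to 8, is in capitals (RefSeq, GRCh38.p14). No sequence of the 7 messages was searched for sites.
hsa-miR-100-5p: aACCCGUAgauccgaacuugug
hsa-miR-99a-5p: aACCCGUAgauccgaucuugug
hsa-miR-99b-5p: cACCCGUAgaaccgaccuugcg
These 3 mature sequences share the seed ACCCGUA.

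The 7 genes belong to different systems, and no pair of them were neighbours on a chromosome. NID2 on chromosome 14 encodes nidogen-2, a glycoprotein that links laminin and collagen IV networks in basement membranes. UNC5C on chromosome 4 encodes a receptor for netrins, secreted cues that steer axons and migrating cells. TES on chromosome 7 encodes testin, a LIM-domain protein of focal adhesions that binds zyxin and regulators of actin. ALPK2 on chromosome 18 encodes an alpha-kinase, a family with little sequence likeness to conventional protein kinases. TTC39B on chromosome 9 encodes a tetratricopeptide repeat protein known to promote the turnover of the liver X receptor (LXR), a nuclear receptor of sterol metabolism. SAMD9L on chromosome 7 encodes an interferon-inducible restraint on growth and viral replication, beside its paralogue SAMD9. SCNN1G on chromosome 16 encodes the gamma subunit of the epithelial sodium channel.

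The 4 arrays had log2 medians of 6.18 to 6.22. Of the 12151 genes at the level in the ALDH-positive pair, the median DOX difference was 0.12 and the central 95% lay between -0.96 and 1.10. In the ALDH-negative pair, with 11819 genes, the median was -0.00 and the central 95% lay between -0.37 and 0.43. The ALDH-positive DOX array stood apart on the control probe sets for the ends of 18S ribosomal RNA. At the 3′ end the DOX difference was -1.90 for ALDH-positive against 0.45 for ALDH-negative cells, and at the 5′ end -1.94 against 0.20. For the middle probe set, at levels of 13.75 to 14.05, it was -0.30 against 0.07. The part of these shifts in the DOX differences was not tested. All 6 mesenchymal markers were at the level, VIM at 13.64 to 13.79, and of 7 luminal and epithelial markers CDH1, EPCAM, ESR1 and PGR stayed under 6 on every array. The other 3 were at the level throughout, the keratin genes KRT18 at 11.97 to 12.45 and KRT8 at 9.93 to 10.51, and GATA3 at 7.10 to 9.42. Of 15 markers of leukocytes, endothelium, red cells and hepatocytes, 12 were measured and 9 stayed under 6 throughout. The other 3 were PECAM1, HBB and TTR.

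With DOX, 6 genes were higher in both fractions and 1 was lower. The share of all genes past 2-fold was 3.47% higher and 2.3% lower in the ALDH-positive pair, 0.271% higher and 0.0508% lower in the ALDH-negative pair, and 0.0517% higher and 0.0172% lower in both (0.0689% together). Since the genes were chosen on these values, nothing is read from their count against these shares. The 6 higher genes were 1.42% of the 422 genes higher in ALDH-positive cells and 18.8% of the 32 higher in ALDH-negative cells. SCNN1G and CXCL10 were 0.714% of the 280 lower in ALDH-positive cells and 33.3% of the 6 lower in ALDH-negative cells. No gene was 2-fold higher in 1 fraction and 2-fold lower in the other.

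**Figure D1:**
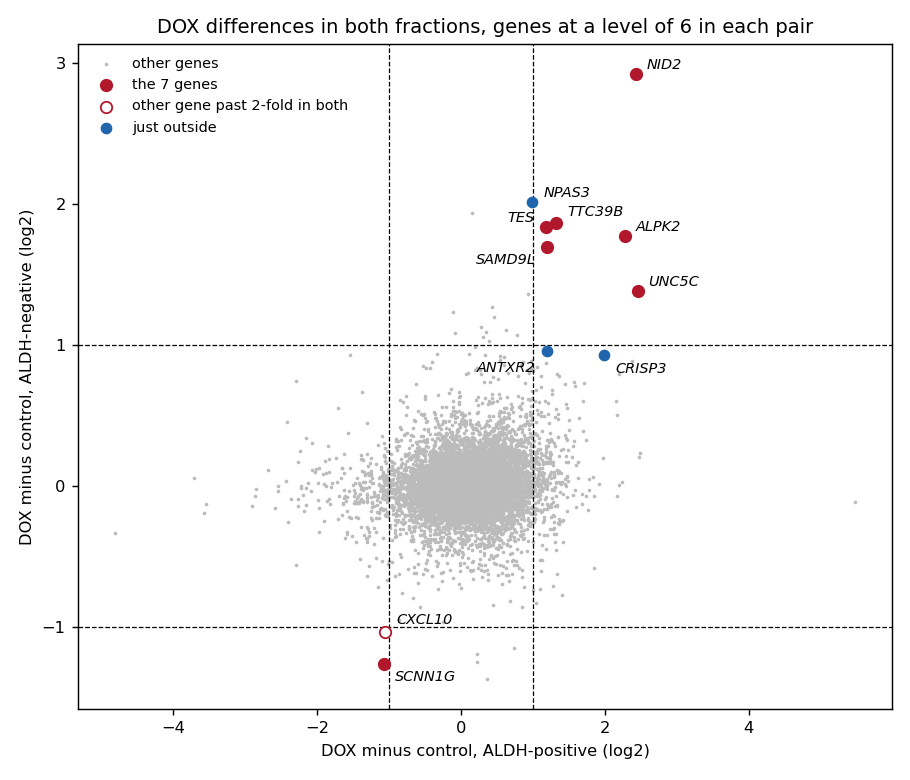
Each point is a gene that reached a log2 level of 6 in each pair, with the DOX minus control difference in ALDH-positive cells on the x axis and in ALDH-negative cells on the y axis, both in log2, and dashed lines at 2-fold. The 7 genes (red) and CXCL10 (open) lie in the upper right and lower left corners, NPAS3, ANTXR2 and CRISP3 (blue) lie just outside, and the cloud of all genes is wider along the x axis than along the y axis.

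NID2, the basement membrane gene, had the largest mean DOX difference of the 7. Its single probe set read 5.20 without and 7.63 with DOX in ALDH-positive cells, and 6.29 without and 9.21 with DOX in ALDH-negative cells. Both DOX arrays were above both controls, and within each treatment the ALDH-negative array was the higher. The DOX difference was 2.43 on the log2 scale (5.38-fold) for ALDH-positive and 2.92 (7.58-fold) for ALDH-negative cells, the 7th and 4th highest of all genes in these pairs. With levels under 6 set to 6 the ALDH-positive difference was 1.63, since its control array lay under that level.

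UNC5C, the netrin receptor gene, had nearly the same level in both controls. Its brightest probe set read 6.50 in the ALDH-positive control and 6.51 in the ALDH-negative control, against 8.96 and 7.89 with DOX. The differences were 2.46 (5.48-fold) for ALDH-positive and 1.38 (2.61-fold) for ALDH-negative cells. The gap between them, 1.07 in favour of ALDH-positive cells, was the only one of the 7 past 2-fold. UNC5C had 4 further probe sets, all under 6 on every array. The brightest of these went from 5.28 to 5.84 and from 4.85 to 5.47. It is listed with a RefSeq message of UNC5C, and the probe set that stood for the gene is not. The mean over all 5 probe sets was 0.76 and 0.43, which ended the 2-fold call in both fractions.

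ALPK2, the alpha-kinase gene, was at 7.16 and 9.43 without and with DOX in ALDH-positive cells and at 6.49 and 8.26 in ALDH-negative cells. Both DOX arrays lay above both controls. The differences were 2.28 (4.84-fold) and 1.77 (3.42-fold). Its second probe set read 6.67 and 7.43 in ALDH-positive cells, a difference of 0.76 that misses 2-fold, while the ALDH-negative arrays read 5.55 and 7.35, which is 1.80 apart.

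TES, the testin gene, was at 6.71 in the ALDH-positive control and 7.88 with DOX, and at 5.98 in the ALDH-negative control and 7.82 with DOX. The 2 DOX arrays nearly met, and the controls lay further apart. The differences were 1.17 (2.26-fold) and 1.84 (3.57-fold). A second probe set, of the shared kind that can hybridise to several transcripts (name ending in _s_at), went the other way in ALDH-positive cells, from 6.32 to 5.86, and from 5.80 to 6.49 in ALDH-negative cells. It was the only 1 of the 12 probe sets at the level that did not go its gene's way in both fractions. The third probe set of TES stayed between 4.56 and 4.70. The mean of the 3 was 0.20 for ALDH-positive and 0.88 for ALDH-negative cells, under 2-fold.

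TTC39B, the gene of the LXR regulator, was at 7.21 and 8.54 without and with DOX in ALDH-positive cells and at 5.05 and 6.92 in ALDH-negative cells. Here the ALDH-positive control lay above the ALDH-negative DOX array, so that the 2 DOX arrays were not both above both controls. The differences were 1.32 (2.5-fold) and 1.87 (3.64-fold), and the ALDH-negative value was 0.92 with levels under 6 set to 6. Another probe set at the level differed by 3.09 and 1.93, and one under the level throughout by 1.74 and 1.07, so that all 3 pointed the same way.

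SAMD9L, the interferon-inducible gene, had 3 probe sets, all of them at the level on all 4 arrays. The brightest was at 6.94 and 8.13 in ALDH-positive cells and at 6.38 and 8.07 in ALDH-negative cells, without and with DOX. Both DOX arrays were above both controls, with DOX differences of 1.19 (2.28-fold) and 1.69 (3.23-fold). The other 2 probe sets differed by 1.04 and 2.0 in ALDH-positive and by 1.94 and 1.44 in ALDH-negative cells, so that every probe set passed 2-fold in both.

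SCNN1G, the sodium channel gene, was the one that was lower. Its level was 8.62 in the ALDH-positive control and 7.55 with DOX, and 8.56 in the ALDH-negative control and 7.29 with DOX. Both DOX arrays lay below both controls, and the fractions were close within each treatment. The differences were -1.06 (2.09-fold lower) and -1.27 (2.41-fold lower), the 2nd lowest of all genes in the ALDH-negative pair. A second probe set lay between 4.26 and 4.54 and showed -0.14 and 0.07. It is listed with a RefSeq message of SCNN1G, and the brightest one is not. The mean of both was -0.60 in each fraction, which is under 2-fold.

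Over all 19 probe sets, 12 reached the level and 10 of these were 2-fold or more in the gene's direction in both fractions. The brightest probe sets of the 7 genes are among the 10 by the choice of genes, so the count is no support. At the level but not among the 10 were the second probe set of ALPK2 and the shared one of TES. By the brightest probe sets, the DOX difference was larger in ALDH-negative cells for 5 of the 7 genes. For UNC5C and ALPK2 it was larger in ALDH-positive cells. This split depended on the choice of probe set. Averaging the probe sets moved TTC39B to the ALDH-positive side (2.05 against 1.62). It moved ALPK2 to the ALDH-negative side (1.79 against 1.52), and left SCNN1G nearly equal (-0.60 in each fraction). With levels under 6 set to 6, 6 of the 7 stayed past 2-fold in both, and TTC39B did not.

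**Figure D2:**
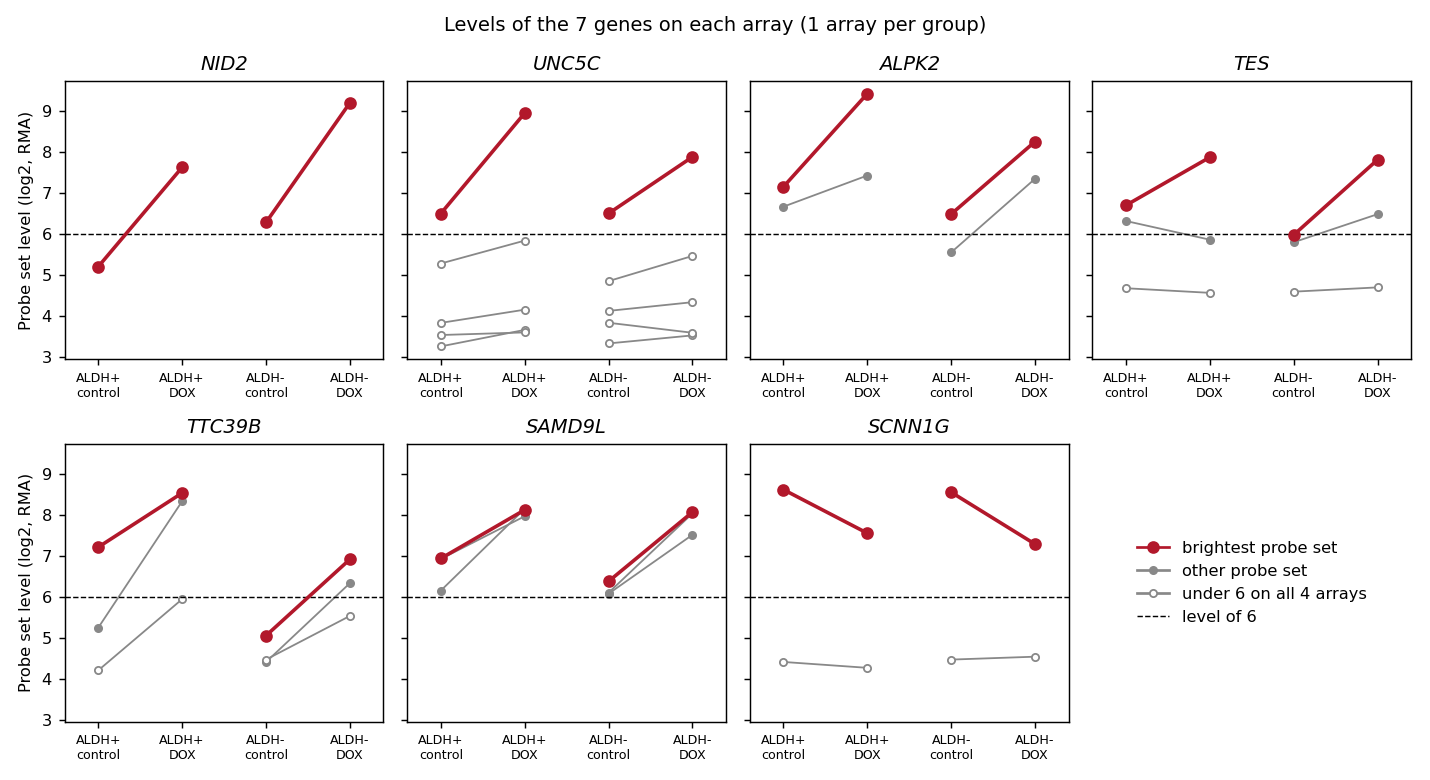
Each panel shows 1 of the 7 genes, with the log2 RMA level on the y axis and the 4 arrays on the x axis, lines joining control to DOX within a fraction, the brightest probe set in red and the others in grey. The red lines climb in 6 panels and drop for SCNN1G, and the open circles under the dashed level of 6 in UNC5C, TES, TTC39B and SCNN1G are probe sets that never reached it.

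At the edge of the rule, CXCL10, which encodes an interferon-induced chemokine, differed by -1.05 and -1.03 and was the nearest gene inside the threshold, followed by SCNN1G and TES with smaller differences of -1.06 and 1.17. Just outside lay NPAS3, which encodes a transcription factor of the nervous system, at 0.99 and 2.01, ANTXR2, an anthrax toxin receptor that binds matrix, at 1.19 and 0.96, and CRISP3, a secreted cysteine-rich protein, at 1.99 and 0.93. With levels under 6 set to 6, CXCL10 was at -0.97 and -0.23.

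The ALDH difference was not used to choose the genes and was tested in an additive limma model over all 4 arrays. It leaves each gene 1 residual degree of freedom, which is the gap between the DOX differences of the fractions, and the choice of genes that moved the same way in both bears on that gap. NID2 was lower in ALDH-positive cells, by -1.33 ± 0.29 (SE, limma adjusted p = 0.00602), and was so in the control pair (-1.08) and the DOX pair (-1.58). TTC39B was higher, by 1.89 ± 0.29 (limma adjusted p = 0.000736), with 2.16 in the control pair and 1.62 in the DOX pair. ALPK2 was higher by 0.92 ± 0.28 (limma adjusted p = 0.0342), with 0.67 and 1.17. Of all 12365 genes tested, 23.1% passed, 13.5% higher and 9.58% lower, so that 3 of 7 is to be read against a large background.

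The other 4 genes did not pass, and their intervals leave room for differences near 2-fold in some. UNC5C was at 0.53 (95% interval -0.15 to 1.22, limma adjusted p = 0.245), TES at 0.39 (-0.24 to 1.03, adjusted p = 0.369), SAMD9L at 0.31 (-0.31 to 0.93, adjusted p = 0.478) and SCNN1G at 0.17 (-0.43 to 0.76, adjusted p = 0.709). By size alone, NID2 and TTC39B were 2-fold apart between the fractions in the control arrays, where 10.5% of all genes were (6.09% higher, 4.4% lower in ALDH-positive cells), and UNC5C and ALPK2 joined them in the DOX arrays, where 16.7% were (11.4% higher, 5.32% lower). In the control arrays NID2 was at -0.29 with levels under 6 set to 6, and TTC39B at 0.91 with probe sets averaged. Averaging also left ALPK2 at 0.62 and UNC5C at 0.28 in the DOX arrays. The call for NID2 was lost with levels under 6 set to 6 (-0.93, limma adjusted p = 0.0595), and the call for ALPK2 was lost without a filter on level (limma adjusted p = 0.104) and without the variance trend (0.0526). The median estimate was 0.39 over the 7 genes and 0.03 over all genes tested. ALDH1A1, an enzyme of the sorted activity, was at 11.77 and 10.72 in ALDH-positive and ALDH-negative controls, and at 10.66 and 10.86 with DOX, an additive estimate of 0.42 (limma adjusted p = 0.258). ALDH1A3, the other enzyme listed for that activity, was at 6.48 and 5.86 in the controls and at 6.64 and 7.79 with DOX, an estimate of -0.26 (limma adjusted p = 0.663). GATA3, a luminal transcription factor gene, was higher in ALDH-positive cells by 2.07 (limma adjusted p = 0.000287). The difference between 3′ and 5′ probe sets, a sign of RNA quality, also split by fraction: for GAPDH it was 0.56 and 0.33 in ALDH-positive arrays, without and with DOX, against 0.87 and 0.98 in ALDH-negative arrays. For ACTB it was 3.11 and 3.50 against 3.70 and 3.87. Among markers of other cell types, PECAM1 (endothelium) read 5.96 and 7.56 in ALDH-positive cells, without and with DOX, and 9.77 and 9.62 in ALDH-negative cells. HBB (red cells) read 6.98 and 6.44 against 5.77 and 5.62, and TTR (hepatocytes) 6.76 and 6.12 against 5.20 and 4.89. The summed log2 levels of the 4 measured endothelial markers ranged from 20.9 to 22.3 in ALDH-positive and from 24.3 to 24.9 in ALDH-negative arrays, those of 2 red cell markers from 11.1 to 11.6 and from 10.2 to 10.3, those of 3 hepatocyte markers from 15.8 to 16.7 and from 15.0 to 15.4, and those of 3 leukocyte markers from 12.48 to 12.77 and from 11.85 to 12.04. Apart from PECAM1, HBB and TTR, every marker in these sums stayed under 6 on all 4 arrays. The leukocyte sums thus hold no marker at the level, and of the endothelial markers only PECAM1 was at it. The part of these markers and of RNA quality in the ALDH differences was not tested.

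**Figure D3:**
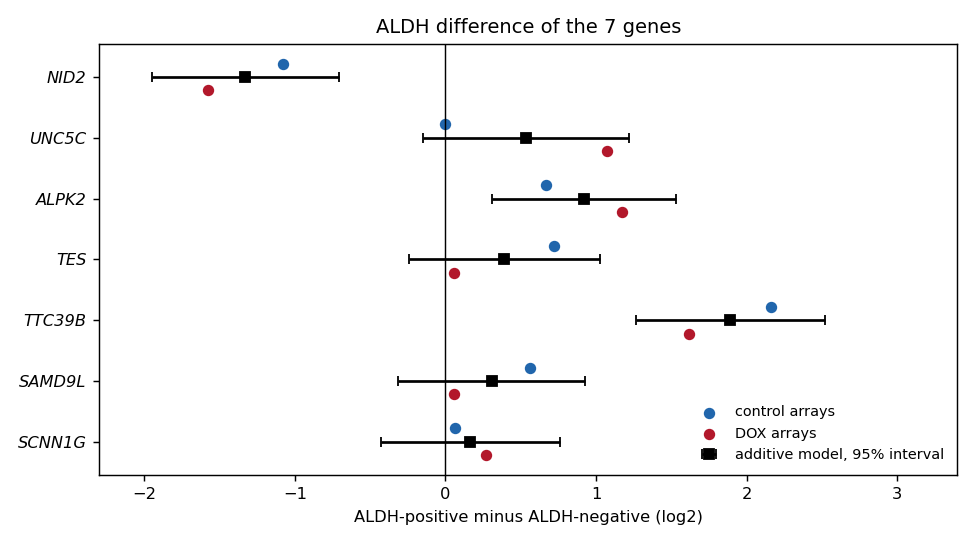
ALDH-positive minus ALDH-negative differences in log2 are shown for the 7 genes, in the control arrays (blue), the DOX arrays (red) and the additive model (black squares with 95% intervals). The interval lies below 0 for NID2 and above 0 for TTC39B and ALPK2, and it includes 0 for the other 4.

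Likeness of pattern was measured as the root mean square distance between log2 profiles over the 4 arrays, each centred on its own mean, and is a description from 4 points. TES and SAMD9L were each other's nearest gene among measured genes, pseudogenes and unnamed loci left out, at a distance of 0.07. Both genes lie on chromosome 7 but are not neighbours. STARD13 (0.34 from TES and 0.30 from SAMD9L) and ATXN1, a transcriptional co-repressor (0.36 and 0.30), came next for both. UNC5C and ALPK2 lay 0.24 apart, and CORO2B, an actin-binding coronin, was 0.23 from UNC5C and 0.38 from ALPK2. NMNAT2, an enzyme of NAD synthesis, was 0.28 from UNC5C, and ATXN1-AS1 was 0.44 from ALPK2. CORO2B, NMNAT2 and ATXN1-AS1 reached a level of 6 only on the ALDH-positive DOX array (6.77, 6.93 and 6.55). Their other levels lay under 6, so these distances carry no firm size.

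NID2 stood further from any other gene. Its nearest were NPAS3 (0.65), the transcription factor gene MEF2C (0.78) and ANTXR2 (0.82). All 3 were higher with DOX in both fractions, MEF2C by 0.93 and 1.36, and had their highest level in ALDH-negative DOX, like NID2. They were picked for a profile like that of NID2, so nothing is drawn from this. The nearest to TTC39B were CLTRN, which encodes collectrin (0.42), ST7-AS1 (0.46) and the angiotensinogen gene AGT (0.46). SCNN1G was nearest to PYGO1, a Wnt co-activator (0.22), RIPOR2 (0.28) and CXCL10 (0.29). PYGO1 differed by -1.03 and -0.67 between DOX and control, and RIPOR2 by -0.59 and -0.69.

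Each of the 7 genes was then set beside the other genes of its own family or pathway. Of 144 other genes on 7 lists, 104 were at the level in at least 1 array. Among those at the level in the ALDH-negative pair, 0 of 95 were past 2-fold either way, where 0.322% of all genes were, and their differences lay between -0.86 and 0.78. In the ALDH-positive pair 9 of 103 were higher and 5 lower, against 5.78% of all genes either way, with a median of 0.13. These are size calls between single arrays and carry no p-value. In the limma test of the ALDH difference, 28 of the 104 passed with a higher level in the ALDH-positive fraction and 8 with a lower one, against 13.5% and 9.58% of all genes.

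Against 3.47% higher and 2.3% lower over all genes, 3 of 20 basement membrane genes were 2-fold higher with DOX in ALDH-positive cells and none lower. They were the collagen gene COL18A1 (1.39), the perlecan gene HSPG2 (1.21) and the laminin gene LAMB2 (1.13), which differed by 0.09, 0.20 and 0.22 in ALDH-negative cells. FBLN1, fibulin-1, the brightest of the list, differed by -0.04 and 0.05. NID1, the paralogue of NID2, stayed under 6 on every array, with levels between 4.36 and 5.71. NID1 was named after its values were seen.

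Netrins and their receptors held no other gene past 2-fold, of 11 for ALDH-positive and 10 for ALDH-negative cells. Of all genes, 5.78% and 0.322% were past it. UNC5B, a paralogue named after its values were seen, was at 11.55 and 11.63 in ALDH-positive and at 9.55 and 9.62 in ALDH-negative cells, without and with DOX. PTK2, the focal adhesion kinase gene, differed by -0.17 and 0.07. Of the alpha-kinases, TRPM7, a channel with a kinase domain, was at -1.30 for ALDH-positive and -0.11 for ALDH-negative cells, and EEF2K, the kinase of an elongation factor, at -0.10 and -0.00.

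Among the relatives and partners of testin, 2 of 18 were 2-fold higher with DOX in ALDH-positive cells, against 3.47% of all genes. The 2 were TLN1 (talin-1, 1.10) and PRICKLE2 (a planar polarity protein, 1.08), which differed by 0.12 and 0.59 in ALDH-negative cells. The zyxin relative LPP differed by -0.07 and 0.04. In the list of the TTC39 family and LXR axis, 4 of 12 were 2-fold higher in ALDH-positive cells, against 3.47% of all genes. The 4 were the apolipoprotein genes APOC1 (1.59) and APOE (1.45), SREBF1 (1.44), which drives lipid synthesis, and NR1H3 (1.05), which encodes LXR-alpha. They were at -0.03, 0.05, 0.73 and 0.12 in ALDH-negative cells. SCD, the stearoyl desaturase gene, differed by 0.02 and -0.07. ABCA1, ABCG1 and MYLIP of the same list, named after their values were seen, differed by 0.44, -0.20 and 0.28 in ALDH-positive cells. The median over the 12 in that pair was 0.36.

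Of 27 other interferon-stimulated genes in ALDH-positive cells none was 2-fold higher and 2 were lower, against 3.47% and 2.3% of all genes. The 2 were the ubiquitin-like ligase HERC5 (-1.72) and IFI6 (-1.26). The median was 0.06, against 0.12 over all genes. In ALDH-negative cells 0 of 20 passed 2-fold, against 0.322% of all genes, and the median was 0.09. DTX3L, a ubiquitin ligase, differed by -0.30 and 0.03. Among genes of the epithelial sodium channel and its control, 2 of 13 were 2-fold lower in ALDH-positive cells, against 2.3% of all genes. The 2 were the kinase genes SGK1 (-1.30) and WNK1 (-1.07), at 0.23 and 0.05 in ALDH-negative cells. TSC22D3, a steroid-induced gene, was at 0.07 and -0.20. The alpha subunit gene SCNN1A, named after its values were seen, differed by 0.48 and 0.02.

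**Figure D4:**
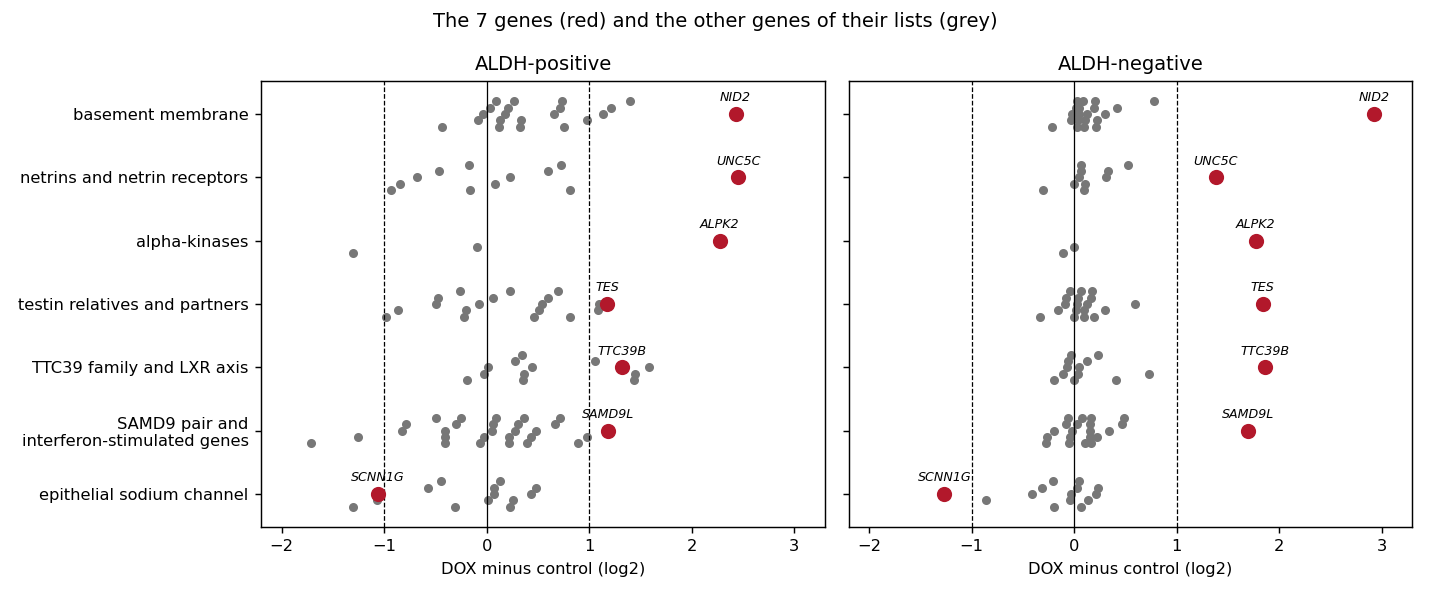
DOX minus control differences in log2 are plotted for the genes of the 7 lists at the level in each pair, ALDH-positive on the left and ALDH-negative on the right, with dashed lines at 2-fold. In the ALDH-negative panel the 7 genes (red) are the only points past the lines, and the grey points lie between -0.86 and 0.78.

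The 2 nearest protein-coding genes on each side of each gene, by order in RefSeq, were looked up after the values of the 7 genes had been seen. Of 28 such neighbours, 19 were at the level in both pairs. In the ALDH-negative pair 0 of these were past 2-fold, where 0.322% of all genes were, and in the ALDH-positive pair 3 were, where 5.78% were. Those were MALT1, a signalling protease beside ALPK2 (1.12, and 0.78 in ALDH-negative cells), ZNF532, also near ALPK2 (-2.85 and -0.02), and the receptor gene BMPR1B beside UNC5C (1.02 and -0.02). SAMD9, the neighbour and paralogue of SAMD9L, was at 8.84 and 9.82 in ALDH-positive and at 9.52 and 10.01 in ALDH-negative cells, with differences of 0.98 and 0.49. SCNN1B, the beta subunit gene beside SCNN1G, went from 7.53 to 6.97 and from 6.15 to 5.29, with differences of -0.57 and -0.86. Both thus lay on the side of their neighbour in both fractions without reaching 2-fold. CAV2 and CAV1, the caveolin genes beside TES, differed by -0.49 and -0.26 in ALDH-positive cells and by 0.01 and -0.04 in ALDH-negative cells.

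**Figure D5:**
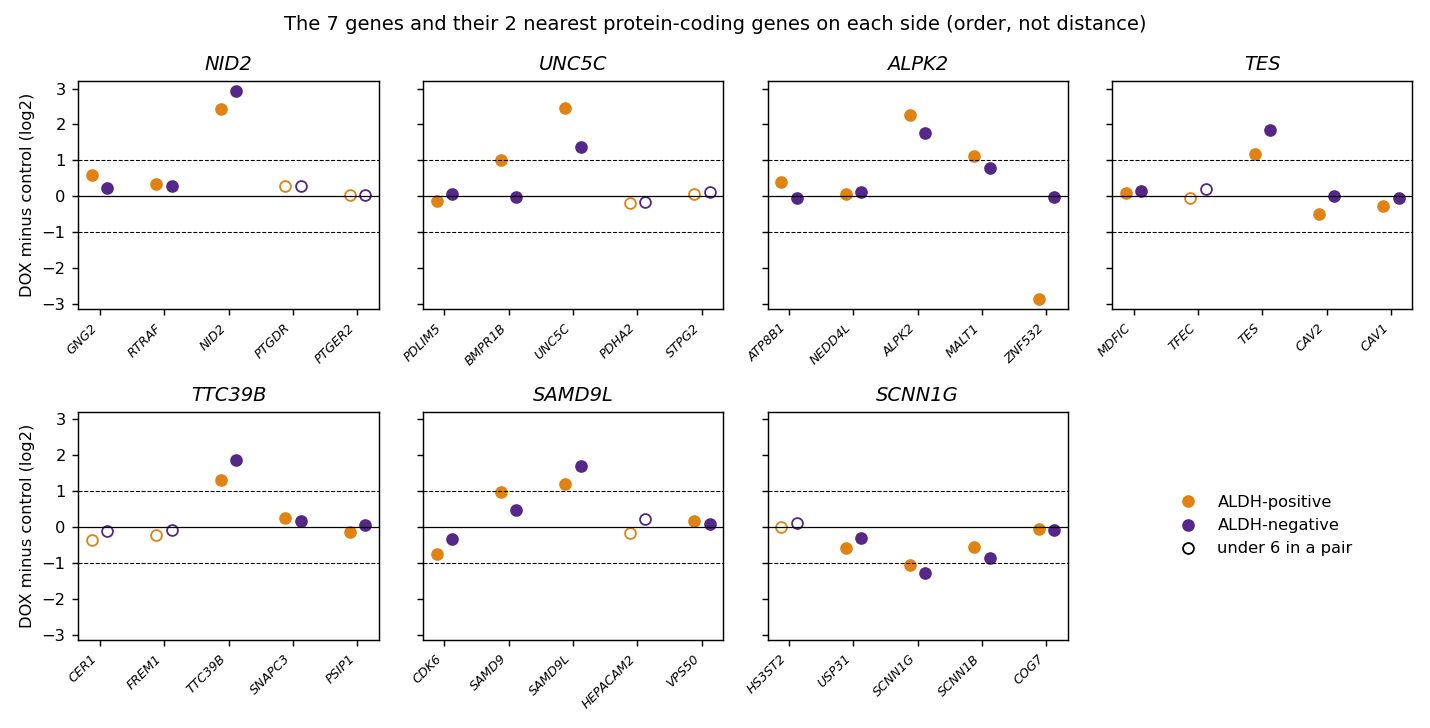
Each panel shows 1 of the 7 genes in the middle with its nearest protein-coding genes in chromosomal order (not to distance), and the DOX minus control difference in log2 on the y axis for ALDH-positive (orange) and ALDH-negative (purple) cells. The middle gene stands apart in most panels, MALT1, SAMD9 and SCNN1B lie part of the way, and open circles mark genes under a level of 6 in a pair.

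RefSeq promoters (GRCh38.p14, 250 bases before to 50 after a start) were given for 6 of the 7 genes, with 2 starts each for TES and TTC39B. They are described because the genes were higher together, and 3 are shown. These are NID2, with the largest difference, and TES and SAMD9L, whose brightest probe sets had the closest profiles. Capitals mark matches on either strand to the TATA box TATAAA, the box named CCAAT, the GC box GGGCGG, the AP-1 site TGANTCA, the E-box CACGTG or the core of the interferon-stimulated response element, in which GAAA occurs 2 times with any 2 bases between.
NID2 (chr14:52069010-52069309, minus strand): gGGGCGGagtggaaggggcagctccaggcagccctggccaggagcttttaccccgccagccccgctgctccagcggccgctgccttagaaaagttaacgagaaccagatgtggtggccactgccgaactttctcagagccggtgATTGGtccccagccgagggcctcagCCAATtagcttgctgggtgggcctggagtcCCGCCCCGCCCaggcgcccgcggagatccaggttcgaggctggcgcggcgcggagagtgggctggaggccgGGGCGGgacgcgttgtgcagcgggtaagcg
TES, first start (chr7:116210289-116210588, plus strand): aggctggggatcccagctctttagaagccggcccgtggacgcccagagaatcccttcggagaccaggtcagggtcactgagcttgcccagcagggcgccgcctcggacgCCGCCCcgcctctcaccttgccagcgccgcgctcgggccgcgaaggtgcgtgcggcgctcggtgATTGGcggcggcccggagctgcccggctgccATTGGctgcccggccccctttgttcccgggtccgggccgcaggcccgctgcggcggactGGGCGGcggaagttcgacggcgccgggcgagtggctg
SAMD9L (chr7:93148336-93148635, minus strand): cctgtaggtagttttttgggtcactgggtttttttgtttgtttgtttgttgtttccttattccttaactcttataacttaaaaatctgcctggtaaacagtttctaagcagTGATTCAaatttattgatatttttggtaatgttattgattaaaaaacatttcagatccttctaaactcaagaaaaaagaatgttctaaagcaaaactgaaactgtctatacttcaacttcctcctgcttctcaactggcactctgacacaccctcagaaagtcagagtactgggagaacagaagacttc
G and C made up 74.3% at the first start of TES, 38.7% at its second start and 34.3% at SAMD9L. The median over 35116 promoters was 58.7%. CCAAT was found at 5 of the 8 starts (NID2, both of TES, 1 of TTC39B, and UNC5C), and in 34.6% of all promoters. GGGCGG was found at 3 of 8 (NID2, TES and TTC39B) and in 44.95% of all, with 2 of the NID2 matches overlapping by 1 base. TATAAA was found at the second starts of TES and TTC39B, in TTC39B as overlapping matches on opposite strands, and in 11.5% of all. SAMD9L held TGANTCA, found in 7.71% of all, in both orientations at one place. No promoter of the 6 genes held the interferon element core (3.57% of all) or CACGTG (7.26% of all). A match describes letters in this window, not a site in use, and nothing is drawn from a motif that was not found.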

How the data were processed

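Biotin-labelled RNA of 4 samples, 1 per group, was measured on Affymetrix arrays. The deposited values are log2 probe set levels; the submitters' processing notes name RMA (release not given in the sources used here), a method that in general corrects background, normalises quantiles and summarises probes, which can narrow differences at low levels. They were used without further scaling. Of 54675 probe sets, an annotation dated 2016 gave 41097 1 gene, 1801 several and 11777 none, and symbols were updated through gene identifiers. The probe set with the highest mean stood for a gene. A gene counted as measured where any array compared reached a log2 level of 6, and an absolute log2 difference of 1 as a call by size. Quartiles were nearly equal between arrays, and the number of arrays limits the precision. With 1 array a group, p-values reflect only spread among these arrays, possibly technical.

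The ALDH difference was fitted with limma 3.58.1 in R 4.3.3 (additive terms for ALDH and DOX, eBayes with trend, a prior of 11.65 degrees of freedom), two-sided, adjusted by Benjamini and Hochberg over 12365 genes, and called under 0.05. The step was run on simulated data with the same spread for every gene and no DOX effect. The real data differ in both, so that run does not vouch for the calls made here. Genes named were the 7, other genes past the threshold, 3 just outside, 3 of nearest profile per gene (no pseudogenes or unnamed loci), and from each list up to 4 called in a DOX comparison and the one of highest mean; neighbours were added after the values were seen. The 7 genes and all lists were chosen with earlier results of these data known. Some list genes were not analysed here. Other steps used Python 3.11.15 and pandas 2.3.3.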

Additional observations from a re-analysis of the deposited data

Results flagged for a closer look

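Among the 12 probe sets that reached a log2 level of 6, 1 each of TES, SAMD9L and UNC5C had a difference that was of opposite sign in the 2 groups compared under 1 contrast. With 1 array per group, none of these differences of direction was tested. The shared probe set of TES differed between DOX and control by -0.46 for ALDH-positive and 0.69 for ALDH-negative cells, and between the fractions by 0.52 without DOX and -0.62 with DOX. A probe set of SAMD9L other than the brightest differed between the fractions by 0.82 without DOX and -0.0692 with DOX. The brightest probe set of UNC5C differed between the fractions by -0.00191 without DOX and 1.07 with DOX.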

How the results depend on the processing

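No paired analysis was possible because each group holds 1 array, and no array could be left out, since the additive model then has no residual degrees of freedom. With probe sets of a gene averaged, 4 of the 7 genes passed 2-fold in each DOX pair and in both, 1 between the fractions without DOX and 2 with DOX. All genes past 2-fold then numbered 248 higher in ALDH-positive, 18 higher and 3 lower in ALDH-negative cells, and 5 in both. Without a filter on level 10 genes passed in both, and without shared probe sets 9 did. With levels under 6 set to 6, or a level of 7 required, 2 genes were lower in ALDH-negative cells, 6 of the 7 genes passed in that pair (not TTC39B), and 1 of the 7 passed between the fractions in the control arrays (not NID2). At a level of 7 both kept their differences (1.87 and -1.08) and were only no longer counted as measured. At 1.5-fold, 1780 were higher and 829 lower with DOX among ALDH-positive, 136 and 73 among ALDH-negative cells, and 68 in both. The additive model called 1672 higher and 1184 lower, but 767 and 410 without a filter and 998 and 529 without trend. Centring on the median of measured genes, chosen after seeing the data, moved the ALDH-positive pair from 422 higher and 280 lower to 264 and 387, and the DOX arrays' ALDH split from 1396 and 650 to 1124 and 843, with all 7 genes still past 2-fold in both fractions. Over the alternatives, 289 values of single genes kept their side of the threshold, 18 lost the call (those at a level of 7 by the filter alone) and 0 reversed. Many of the 289 could not change, since some settings leave the values of the 7 genes as they were. Reversal was counted for called values only. Uncalled values did change sign, as for TES between the fractions in the DOX arrays (0.06, and -0.23 with probe sets averaged). UNC5C fell short of 2-fold between the fractions in the DOX arrays with that centring (0.95), with cyclic loess (0.9985) and with probe sets averaged (0.28). The causes were not tested. Levels under 6 carry no firm size.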
